A study of Homo sapiens with 6 samples.

Results

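The 42 genes described here are interferon-stimulated genes, chosen by symbol from a fixed list of genes known to be induced by interferons. All 42 were found among the 17468 genes of the deposited expression table, and 39 of them were among the 11129 genes with a mean of at least 1 FPKM (fragments mapped to a gene, scaled by transcript length and library size) over the 6 libraries. IFI27, XAF1 and EPSTI1 fell below that level and were described but not tested.

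Interferons are secreted proteins that cells release when they sense viral nucleic acid. Type I interferons bind a receptor made of IFNAR1 and IFNAR2, and the kinases JAK1 and TYK2 then phosphorylate STAT proteins, among them STAT2, which joins IRF9 in the complex ISGF3. ISGF3 binds a DNA element called the interferon-stimulated response element (ISRE) in the promoters of genes whose products block viral replication, and IRF7 amplifies the loop by inducing more interferon. Double-stranded RNA can start the same programme through the sensors RIG-I (DDX58) and MDA5 (IFIH1).

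RNA was sequenced from 2 established human melanoma cell lines, A375 and Colo800, grown in medium with 10% FBS. Each line was infected with a virus carrying a scrambled hairpin (Scrambled) or 1 of 2 hairpins against the ETS transcription factor ETV1 (ETV1-sh1 and ETV1-sh2), and RNA was taken 4 days after infection. Infections were done in duplicate per the series' design text, but 1 library per line and hairpin was analysed here, and whether it pools the duplicates is not stated. All 6 libraries came from infected cells, so the effect of hairpin delivery itself cannot be told apart from the baseline level of any gene. The labels also attach a drug to each hairpin: DMSO to ETV1-sh1, 5 nM trametinib (a MEK inhibitor) to ETV1-sh2 and 1 uM vemurafinib (the labels' spelling of the BRAF inhibitor vemurafenib) to Scrambled. Their treatment text speaks of siRNA for 48 hours and drug for 8 hours, whereas the design text names no drug. Hairpin and drug label coincide in both lines and cannot be told apart, so each group is named here by its hairpin label.

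ETV1 was at 82.8, 34.6 and 3.46 FPKM in A375 with the Scrambled, ETV1-sh1 and ETV1-sh2 hairpins, and at 180.3, 54.6 and 9.80 FPKM in Colo800. Between 30.3% and 41.8% of the ETV1 level was left with ETV1-sh1, and between 4.18% and 5.43% with ETV1-sh2. Each library had 10418 to 11013 genes at 1 FPKM or more. Low FPKM values placed the libraries at 0.769 to 2.10 times the depth of the A375 Scrambled library, with A375 ETV1-sh2 the deepest. Each placement took the commonest ratio of low values, which 7.13% to 9.88% of the low genes compared shared. SOX10, a neural crest and melanocyte lineage factor, stood at 353 to 712 FPKM in the 6 libraries. TYR and DCT, which encode pigment enzymes, were under 0.1 FPKM in every A375 library and at 14.8 to 125.3 FPKM in the Colo800 libraries. MLANA, a melanocyte antigen, reached at most 1.85 FPKM. PTPRC, which encodes the pan-leukocyte protein CD45, reached at most 0.121 FPKM. In bulk RNA, more cells with a transcript and more transcript per cell cannot be told apart.

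Promoter sequence is shown first because the ISRE is the element that ISGF3 binds. In the RefSeq promoter table (GRCh38.p14, 250 bases before to 50 bases after each gene's starts), 34 of the 42 genes were matched, DDX58 under its newer symbol RIGI. The core ISRE pattern (GAAA, any 2 bases, GAAA), searched on both strands, was present in 22 of these 34 genes (64.7%), against 4.38% of all 27305 genes in the table and 3.99% of the 8711 tested genes found there. Counted over single promoter windows of 300 bases, the pattern was in 26 of 46 windows of the 34 genes (56.5%) and in 3.57% of all 35116 windows. The following 30-base windows lie before a gene's start and read 5′ to 3′ on the gene's strand, with the match in capitals.
IFI44 (chr1:78649761-78649790, plus strand): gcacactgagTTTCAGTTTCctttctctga
IFIT1 (chr10:89392510-89392539, plus strand): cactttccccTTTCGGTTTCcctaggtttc
IFIT3 (chr10:89332468-89332497, plus strand): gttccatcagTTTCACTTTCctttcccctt
IFIT5 (chr10:89414513-89414542, plus strand): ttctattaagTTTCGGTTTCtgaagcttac
ISG15 (chr1:1013380-1013409, plus strand): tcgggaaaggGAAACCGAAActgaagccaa
BST2 (chr19:17405735-17405764, minus strand): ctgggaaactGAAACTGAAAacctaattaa
SAMD9 (chr7:93118096-93118125, minus strand): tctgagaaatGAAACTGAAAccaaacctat
IFITM1 (chr11:313990-314019, plus strand): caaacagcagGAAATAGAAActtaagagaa
DDX60 (chr4:168318786-168318815, minus strand): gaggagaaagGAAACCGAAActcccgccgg
IFITM3 (chr11:320876-320905, minus strand): aaactgttgaGAAACCGAAActactgggga
OAS3 (chr12:112938321-112938350, plus strand): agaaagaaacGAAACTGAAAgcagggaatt
ISG20 (chr15:88638937-88638966, plus strand): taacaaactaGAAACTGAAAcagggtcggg

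The first 9 of these windows belong to genes that rose with ETV1-sh2, described next, and the last 3 to genes that did not pass the test. The pattern was in 9 of the 14 matched genes that rose with ETV1-sh2 and in 13 of the other 20 matched genes. In IFI44, IFIT1, IFIT3 and IFIT5 the printed match lay on the opposite strand of the gene. A second element, the gamma-activated site pattern TTCNNNGAA bound by STAT dimers, was in 11 of the 34 genes (32.4%), against 9.38% of all genes in the table. The ETS core CCGGAA, bound by the family of transcription factors that ETV1 belongs to, was in 2 of the 34 genes, CMPK2 and RSAD2 (5.88%), against 20.1% of all genes and 35.0% of the tested genes. Each match is a description of letters in these windows.

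With ETV1-sh2, 17 of the 39 tested interferon-stimulated genes rose against Scrambled and none fell. Examples are IFIT1 and IFIT3, which bind or help bind foreign RNA, ISG15, a ubiquitin-like modifier, and IRF7 and IRF9, the transcription factors of the interferon loop. The 17 are 43.6% of the 39, while 7.73% of all 11129 genes tested were called higher and 9% lower in this comparison. The test was limma on log2(FPKM + 1) with the cell line as a term, and p-values were adjusted by Benjamini-Hochberg over all 11129 genes. Before adjustment, 27 of the 39 had a p under 0.05 and all 27 were higher. The fitted log2 difference was positive for 36 of the 39, against 53.4% of all genes. The 39 had a median of 1.20, against a median of 0.05 over all genes. This median was 0.63 without A375 ETV1-sh2 and 0.77 without A375 Scrambled, the lowest of the 6 fits that each left out 1 library, and at most 1.58, without Colo800 ETV1-sh2. The scale of log2(FPKM + 1) understates the change of genes near or below 1 FPKM. With ETV1-sh2 left aside, IFI44L, OASL, IFITM1 and RSAD2 had means under 1 FPKM, so the ETV1-sh2 libraries brought them into the test. Replication in this fit comes from the 2 lines, since each line and hairpin has 1 library. Calls over all genes changed with the setting as well. The count of 17 was 0 when no filter on low values was set, when no gene of the table passed. It was 0 without the line term, when no gene of the table was called higher. The count also fell without each library in turn except Colo800 ETV1-sh2, without which it rose. Calls over all genes moved the same way. The median of the 39 was 1.20 without A375 ETV1-sh1, 1.20 without Colo800 ETV1-sh1 and 1.51 without Colo800 Scrambled. Each of the 17 lost its call in at least 1 of these fits. In them the fitted difference fell as low as 0.83 for OAS1, 0.82 for HERC6, 0.91 for DDX60 and 0.74 for USP18.

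In what follows, levels are given in FPKM for Scrambled, ETV1-sh1 and ETV1-sh2, in that order, first in A375 and then in Colo800. Fitted differences are log2 values from limma for ETV1-sh2 minus Scrambled, with the standard error (SE) and the Benjamini-Hochberg adjusted p.

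Among the 4 transcription factors and signalling genes, IRF7 and IRF9 rose. IRF9, the DNA-binding subunit of ISGF3, was at 10.8, 23.1 and 37.6 FPKM in A375 and at 16.3, 25.0 and 39.9 FPKM in Colo800. Its levels stepped up from Scrambled to ETV1-sh1 to ETV1-sh2 in each line, and the ETV1-sh2 libraries stood above the other 4. The fitted difference was 1.48 (SE 0.192, limma adjusted p = 0.0113), and it lay between 1.25 and 1.70 in the fits that each left out 1 library. IRF7, the factor that induces the interferon-alpha genes, was at 4.48, 6.26 and 23.5 FPKM in A375 and at 6.35, 7.42 and 14.4 FPKM in Colo800. Here too both ETV1-sh2 libraries were the highest, with the larger step in A375. The difference was 1.62 (SE 0.292, limma adjusted p = 0.0206). STAT2, a subunit of ISGF3, was at 17.1, 18.4 and 38.0 FPKM in A375 and at 9.37, 12.4 and 14.6 FPKM in Colo800, and its difference of 0.85 missed the threshold (SE 0.230, limma adjusted p = 0.0527). IRF1, a factor that interferon-gamma induces, lay between 11.5 and 20.8 FPKM in the 6 libraries and differed by -0.07 (limma adjusted p = 0.864).

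Of the 4 RNA sensor genes, DDX60 rose. DDX60, a helicase reported to assist RIG-I, was at 0.970, 2.04 and 6.45 FPKM in A375 and at 1.85, 1.86 and 3.91 FPKM in Colo800. The ETV1-sh2 libraries stood above the other 4, and the difference was 1.35 (SE 0.311, limma adjusted p = 0.0350). DHX58, which encodes the RIG-I relative LGP2, reached 13.0 FPKM in A375 ETV1-sh2 from 2.43 in A375 Scrambled but 4.28 from 2.69 in Colo800, and did not pass (1.28, limma adjusted p = 0.0608). The receptors that bind viral double-stranded RNA were further from the threshold. DDX58 (RIG-I) was at 3.20, 6.26 and 7.07 FPKM in A375 and at 2.74, 2.53 and 2.55 FPKM in Colo800, with a difference of 0.43 (limma adjusted p = 0.335). IFIH1 (MDA5) was at 1.82, 2.92 and 3.75 FPKM in A375 and at 3.01, 4.71 and 4.38 FPKM in Colo800, with a difference of 0.59 (limma adjusted p = 0.113).

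The 15 antiviral effectors held 7 of the genes that rose, among them the 4 IFIT genes. IFIT proteins bind viral RNA or support each other in doing so. IFIT1, which recognises RNA caps that lack a methyl group, was at 0.601, 1.46 and 20.2 FPKM in A375 and at 1.03, 0.944 and 3.52 FPKM in Colo800. The A375 ETV1-sh2 library stood far above all others. IFIT1 had the largest fitted difference of the 39 genes, 2.44 (SE 0.572, limma adjusted p = 0.0368). Leaving out 1 library moved this estimate between 1.32 and 3.56, and it lost its call in 3 of the 6 such fits. IFIT3, which stabilises IFIT1, was at 4.11, 9.75 and 24.4 FPKM in A375 and at 6.74, 6.06 and 19.8 FPKM in Colo800. The ETV1-sh2 libraries of both lines were again the highest, at 1.87 (SE 0.305, limma adjusted p = 0.0171). IFIT2 was at 1.36, 2.10 and 4.52 FPKM in A375 and at 1.55, 1.21 and 5.09 FPKM in Colo800. It rose by about the same amount in each line, by 1.23 in A375 and 1.26 in Colo800 (fitted 1.24, SE 0.257, limma adjusted p = 0.0276). IFIT5 was at 17.4, 16.9 and 28.2 FPKM in A375 and at 9.74, 10.7 and 16.0 FPKM in Colo800. This was the smallest called change, 0.66 (SE 0.172, limma adjusted p = 0.0475), and it was lost in each of the 6 fits without 1 library.

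OAS1, SAMD9 and SAMD9L were the other effectors that rose. OAS1 encodes a synthetase that makes the second messenger 2-5A. It was at 3.5, 6.67 and 18.7 FPKM in A375 and at 3.54, 4.69 and 6.49 FPKM in Colo800. Within each line the order was Scrambled, ETV1-sh1, ETV1-sh2, although Colo800 ETV1-sh2 did not exceed A375 ETV1-sh1 (1.43, SE 0.343, limma adjusted p = 0.0393). SAMD9, a restriction factor for poxviruses, was at 11.1, 10.1 and 25.3 FPKM in A375 and at 6.64, 5.34 and 13.2 FPKM in Colo800. In both lines ETV1-sh1 was slightly below Scrambled and ETV1-sh2 about double it, with a difference of 1.01 (SE 0.181, limma adjusted p = 0.0203). Its neighbour and paralog SAMD9L was at 7.13, 15.4 and 33.8 FPKM in A375 and at 6.002, 4.72 and 17.6 FPKM in Colo800. Its difference of 1.75 (SE 0.312, limma adjusted p = 0.0199) moved between 1.26 and 2.25 in the fits without 1 library.

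The other 8 effectors did not pass. OAS2, another 2-5A synthetase, was at 2.997, 9.22 and 25.2 FPKM in A375 and at 0.372, 0.147 and 1.06 FPKM in Colo800. The fitted difference of OAS2 was 1.65 (SE 0.488, limma adjusted p = 0.0659). MX1, a GTPase that traps viral nucleocapsids, was at 3.80, 7.24 and 29.9 FPKM in A375 and at 1.60, 0.710 and 2.13 FPKM in Colo800 (1.48, limma adjusted p = 0.1004). OAS3, OASL, CMPK2 and RSAD2 had fitted differences between 0.64 and 1.23. RSAD2 encodes viperin, an enzyme that makes a chain-terminating nucleotide. ISG20, an RNA exonuclease, was higher with ETV1-sh2 in A375 (41.0 to 64.0 FPKM) and lower in Colo800 (63.1 to 32.6 FPKM), with a fitted -0.15. MX2, a capsid-binding relative of MX1 that blocks HIV, had the lowest fitted value of the 39 genes, -0.50 (limma adjusted p = 0.154).

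ISG15 and the enzymes that attach or remove it held 4 called genes of 5. ISG15, the ubiquitin-like modifier, was at 7.54, 6.18 and 37.1 FPKM in A375 and at 5.51, 6.76 and 13.6 FPKM in Colo800. Scrambled and ETV1-sh1 lay within a narrow band, and both ETV1-sh2 libraries lay above it (1.66, SE 0.350, limma adjusted p = 0.0285). UBE2L6, the conjugating enzyme for ISG15, was at 40.8, 54.8 and 78.3 FPKM in A375 and at 12.8, 18.9 and 44.9 FPKM in Colo800. It was the called gene with the largest Colo800 change, 1.73, against 0.92 in A375 (fitted 1.33, SE 0.235, limma adjusted p = 0.0198). HERC6, the main ISG15 ligase of mice, was at 5.74, 11.4 and 20.7 FPKM in A375 and at 3.06, 4.64 and 5.68 FPKM in Colo800 (1.20, SE 0.267, limma adjusted p = 0.0325). USP18, the protease that removes ISG15 and also damps signalling at IFNAR2, was at 1.19, 2.84 and 6.46 FPKM in A375 and at 3.89, 5.21 and 6.55 FPKM in Colo800 (1.20, SE 0.303, limma adjusted p = 0.0449). UBE2L6, HERC6 and USP18 each stepped up from Scrambled to ETV1-sh1 to ETV1-sh2 in both lines. HERC5, the main human ISG15 ligase, was at 1.81, 3.12 and 5.31 FPKM in A375 but under 0.02 FPKM in each Colo800 library, and did not pass (0.59, limma adjusted p = 0.253).

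Of the 4 tested membrane protein genes, BST2 and IFITM1 rose. BST2 encodes tetherin, which holds budding virus particles at the cell surface. It was at 3.68, 9.80 and 16.4 FPKM in A375 and at 2.07, 2.37 and 5.53 FPKM in Colo800 (1.49, SE 0.294, limma adjusted p = 0.0249). IFITM1, which hinders fusion of viral and cell membranes, was at 1.31, 1.78 and 9.48 FPKM in A375 and at 0.492, 0.380 and 2.30 FPKM in Colo800 (1.67, SE 0.305, limma adjusted p = 0.0211). Its neighbour IFITM3 carries an ISRE match as well, printed above, and was not called. IFITM3 had the highest level of the 42 genes, 328, 253 and 285 FPKM in A375 and 221, 190 and 255 FPKM in Colo800. Its difference was 0.00, with a 95% confidence interval of -0.40 to 0.41. IFI6, a mitochondrial and endoplasmic reticulum protein, reached 149.8 FPKM in A375 ETV1-sh2 from 37.3 with Scrambled, while in Colo800 its highest library was ETV1-sh1 at 120.5 FPKM (1.19, limma adjusted p = 0.160). IFI27, not tested, was at 3.34 FPKM in A375 ETV1-sh2 and at or under 0.393 FPKM in the other 5 libraries.

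In the last group, of nuclear and other genes, 1 of 7 tested genes rose with ETV1-sh2. IFI44, a cytoplasmic protein that type I interferon induces, was at 9.56, 41.3 and 47.2 FPKM in A375 and at 11.9, 25.1 and 26.7 FPKM in Colo800. All 4 ETV1 hairpin libraries stood above the 2 Scrambled ones (1.65, SE 0.289, limma adjusted p = 0.0196). PARP9 and PARP14, mono-ADP-ribosylating enzymes or their partners, had fitted differences of 0.66 and 0.60 (limma adjusted p = 0.0795 and 0.0799). IFI44L, the paralog next to IFI44, was at 0.325 and 6.32 FPKM in A375 with Scrambled and ETV1-sh2 but reached only 0.288 FPKM in Colo800, and did not pass (1.41, limma adjusted p = 0.110). IFI35, a leucine zipper protein, was at 20.1, 21.4 and 47.9 FPKM in A375 and between 21.0 and 23.6 FPKM in the 3 Colo800 libraries, with a difference of 0.59. SP100, a nuclear body protein, and TRIM22, a ligase that acts against HIV transcription, had differences of 0.03 and 0.12. XAF1 and EPSTI1, not tested, were highest in the ETV1-sh2 library of each line but reached at most 1.72 and 1.25 FPKM.

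**Figure D1:**
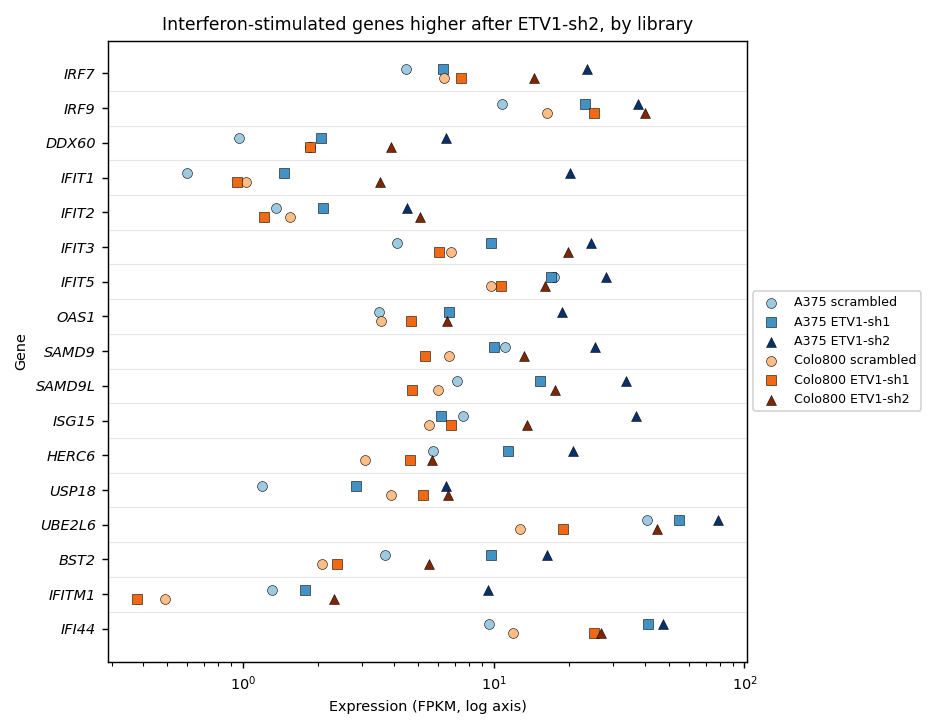
Expression of the 17 interferon-stimulated genes called higher with ETV1-sh2, in FPKM on a log axis, with 1 point per library (blue A375, orange Colo800; circles Scrambled, squares ETV1-sh1, triangles ETV1-sh2). In 11 of the 17 genes both triangles lie to the right of the other 4 points, and in 9 of the 17 the order is circle, square, triangle in each line.

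The order of the libraries was counted for the 42 genes only, so no share over all genes stands beside these counts. Both ETV1-sh2 libraries stood above the other 4 libraries in 15 of the 42 genes, and in 11 of the 17 that rose. The highest of the 6 libraries was A375 ETV1-sh2 in 32 of the 42 genes. That library was also the deepest, at 2.10 times the A375 Scrambled library. With that library left out, the median difference of the 39 tested genes, ETV1-sh2 minus Scrambled, was 0.63. It then rests on 1 ETV1-sh2 library, that of Colo800. Within Colo800, the relative depths were close, at 0.802, 0.859 and 0.769 for Scrambled, ETV1-sh1 and ETV1-sh2. The ETV1-sh2 library held the highest Colo800 value in 33 of the 42 genes. The part of depth in the levels of either line was not tested.

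With ETV1-sh1, the hairpin that left more ETV1, no interferon-stimulated gene passed the test. In this comparison 0.773% of all genes were called higher (86 of 11129) and 1.51% lower. IFI44 came nearest, with a difference of 1.51 (SE 0.289, limma adjusted p = 0.0637), followed by IRF9 with 0.81 (SE 0.192, limma adjusted p = 0.0971). Before adjustment 3 of the 39 had a p under 0.05, all higher, against 982 higher and 1113 lower among all genes. Of the 39, 32 were positive, against 50.2% of all genes. The median difference of the 39 was 0.27, against 0.00 over all genes. This median rests on the Scrambled libraries: it turned to -0.10 without A375 Scrambled and was 0.63 without Colo800 Scrambled. It was 0.17 without Colo800 ETV1-sh1. Both hairpin comparisons use the same Scrambled libraries, so their values for a gene are not independent.

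Taking the 4 ETV1 hairpin libraries as one group against the 2 Scrambled libraries, 0 of the 39 genes passed the limma test, and 0% of all 11129 genes were called in that fit, in either direction. At an unadjusted p under 0.05, 8 of the 39 were higher and 0 lower, against 637 higher and 567 lower of all genes. The median difference of the 39 was 0.77, but 0.34 without A375 Scrambled and 0.35 without A375 ETV1-sh2. The smallest adjusted p among them was 0.279.

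The hairpins were also compared directly. The difference itself uses no Scrambled library, but its SE and p-value come from the fit of all 6 libraries. With ETV1-sh2 against ETV1-sh1, 8 of the 39 genes were higher and none lower, against 6.82% of all genes called higher and 6.91% lower. SAMD9 was higher by 1.21 (SE 0.181, limma adjusted p = 0.0133), IFITM1 by 1.59 (SE 0.305, limma adjusted p = 0.0250) and ISG15 by 1.66 (SE 0.350, limma adjusted p = 0.0316). IFIT3, IRF7, SAMD9L and IFIT2 followed, by 1.40, 1.32, 1.39 and 1.15, with limma adjusted p-values from 0.0339 to 0.0370. PARP9 was at 13.9, 14.7 and 27.9 FPKM in A375 and at 10.7, 7.59 and 14.2 FPKM in Colo800. It was the 1 gene of the 8 that had not been called against Scrambled (0.85, SE 0.213, limma adjusted p = 0.0479). IFIT1, with the largest difference between the hairpins, 2.16, missed the threshold (SE 0.572, limma adjusted p = 0.0553). IFI44 showed the opposite case, since its ETV1-sh1 and ETV1-sh2 levels were close in each line and differed by 0.14 (95% confidence interval -0.56 to 0.84). The count of 8 became 0 without the filter on low values or the line term, and no gene of the whole table was called higher in those fits. Calls were lost or gained when 1 library was left out. The median difference of the 39 was 0.75 in the main fit, 0.75 without A375 ETV1-sh1 and 0.74 without Colo800 ETV1-sh1. It was 0.34 without A375 ETV1-sh2 and 1.02 without Colo800 ETV1-sh2.

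**Figure D2:**
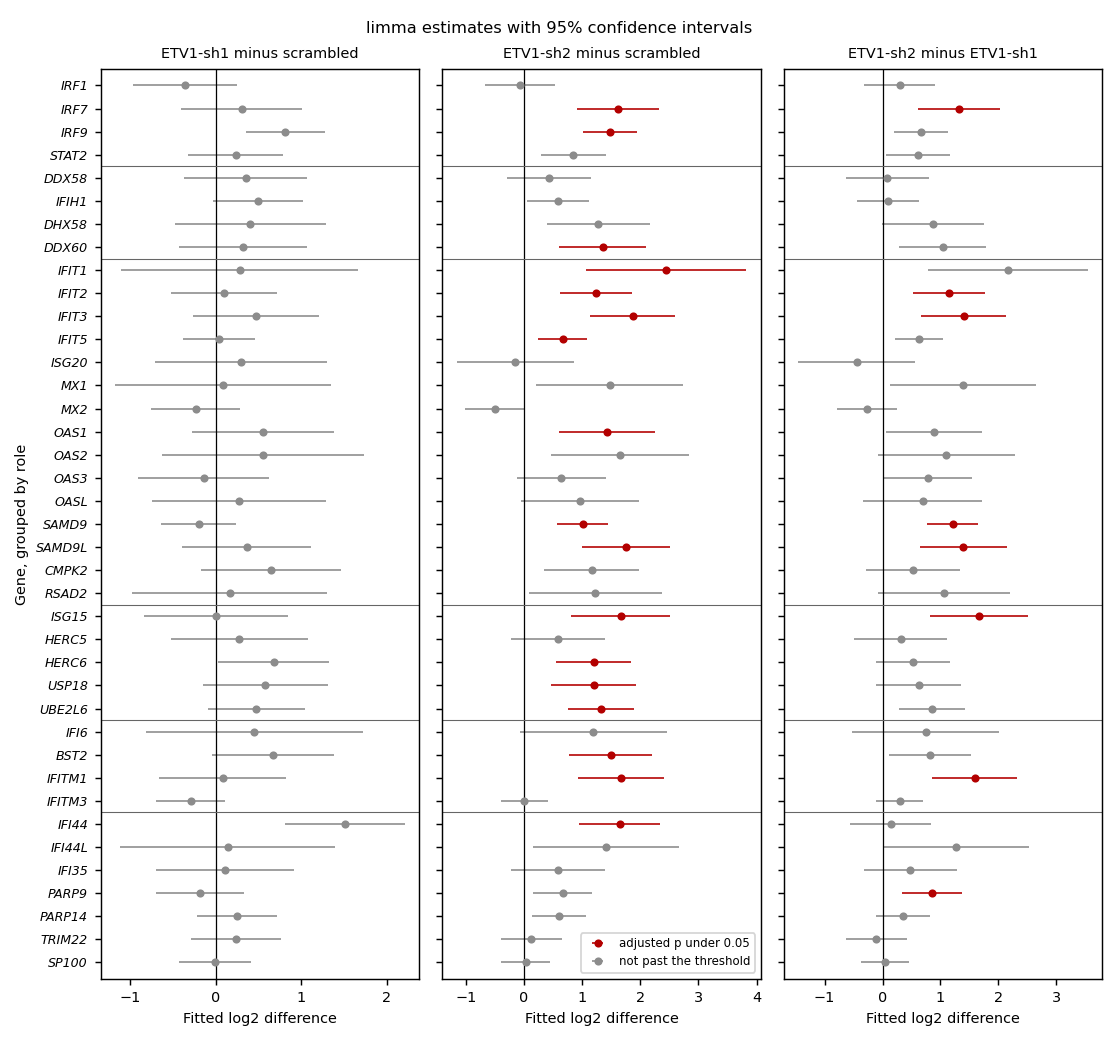
Fitted log2 differences of the 39 tested genes, grouped by role, for ETV1-sh1 minus Scrambled, ETV1-sh2 minus Scrambled and ETV1-sh2 minus ETV1-sh1, with 95% confidence intervals as lines and red for a limma adjusted p under 0.05. There are 0 red points in the left panel, 17 in the middle and 8 on the right, and the intervals of IFITM3, SP100 and IRF1 include 0 in all 3 panels.

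Within each line, differences between single libraries have no replicate check and are given as descriptions. In A375, 27 of the 39 genes were at least 2-fold higher with ETV1-sh2 than with Scrambled on the log2(FPKM + 1) scale, against 6.93% of all genes, with a median of 1.71. In Colo800, 11 of the 39 were at least 2-fold higher with ETV1-sh2, against 5.18% of all genes, with a median of 0.52. None of the 39 was at least 2-fold lower with ETV1-sh2, against 8.29% of all genes in A375 and 6.38% in Colo800. The 10 genes past 2-fold in both lines were IFI44, IFIT1, IFIT2, IFIT3, ISG15, IRF7, IRF9, BST2, SAMD9L and IFITM1. The largest single changes were 3.73 for IFIT1 in A375 and 1.73 for UBE2L6 in Colo800.

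ETV1-sh1 showed smaller changes. In A375, 7 of the 39 genes were at least 2-fold higher, against 2.77% of all genes, with a median of 0.47. In Colo800 that held for 1 gene, IFI44, against 2.54% of all genes, with a median of 0.02. None was at least 2-fold lower with ETV1-sh1, against 3.89% of all genes in A375 and 3.96% in Colo800. IFI44 was thus the 1 gene past 2-fold with both hairpins in both lines, at 2.002 and 2.19 in A375 and 1.01 and 1.10 in Colo800.

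The change with ETV1-sh2 was larger in A375 than in Colo800 for 34 of the 39 genes, a count not made over all genes. The difference between the lines in the mean effect of the ETV1 hairpins was tested as an interaction in limma. ETV1-sh1 and ETV1-sh2 served as replicates of the same knockdown state in that fit, so the difference between them counts as spread. The fit therefore does not test the ETV1-sh2 change alone. Of the 39 genes 0 passed, and 0 had an unadjusted p under 0.05. Of all 11129 genes 0% passed in either direction, and at an unadjusted p under 0.05 the effect was more positive in Colo800 for 42 and less for 24. Across the 39 genes the ETV1-sh2 changes in the 2 lines had a Pearson r of 0.52 and a Spearman rho of 0.49, against 0.66 and 0.67 over all genes. These correlations are across genes, which are not independent replicates, and are given as a description.

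**Figure D3:**
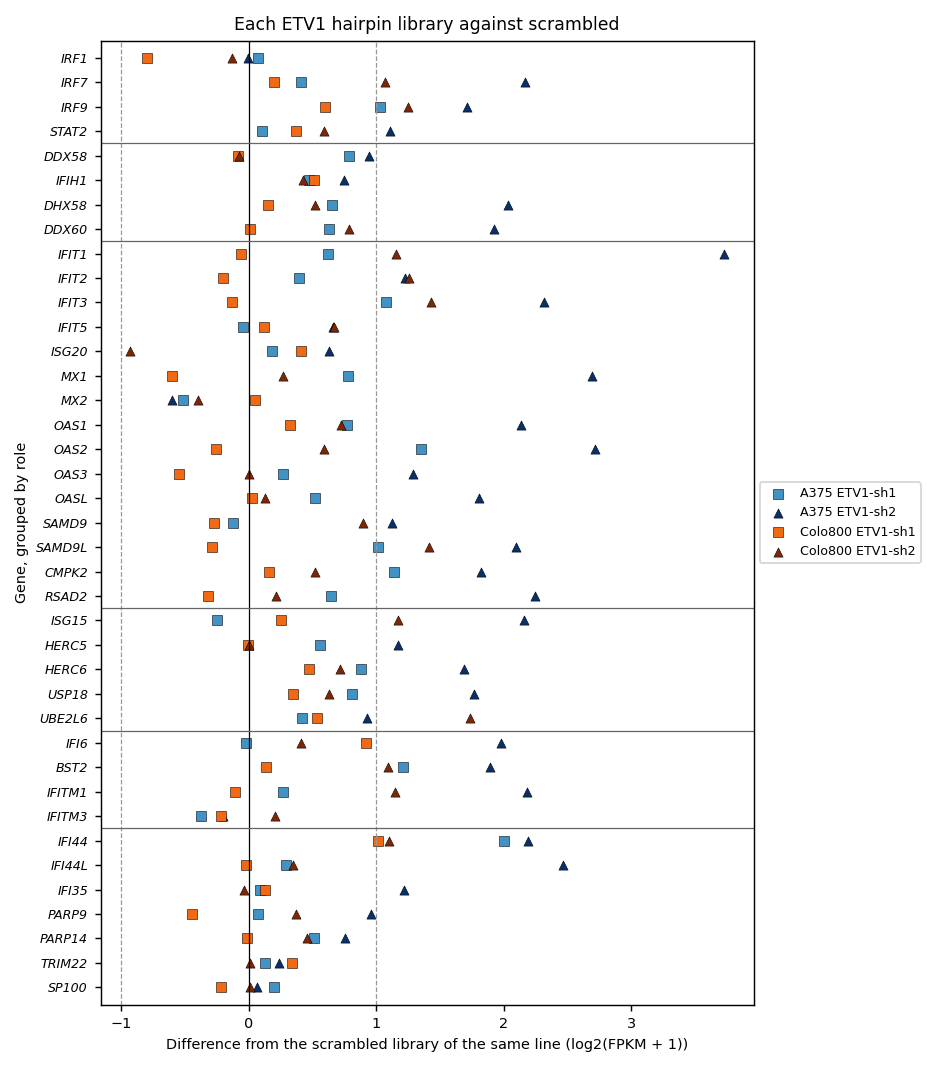
Difference of each ETV1 hairpin library from the Scrambled library of its line, in log2(FPKM + 1), for the 39 tested genes grouped by role (blue A375, orange Colo800; squares ETV1-sh1, triangles ETV1-sh2), with dashed lines at a 2-fold change. Past the right dashed line lie 27 of the A375 triangles, 11 of the Colo800 triangles, 7 of the A375 squares and 1 Colo800 square, that of IFI44.

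Over the 3 hairpins, 19 of the 39 genes were lower in Colo800 than in A375 and none was higher. Among all genes 31.8% were called higher and 25.3% lower in Colo800, so the lines differ widely. The median difference of the 39, Colo800 minus A375, was -0.68, against 0.07 over all genes. MX2 differed most. It was at 76.6, 53.2 and 50.2 FPKM in A375 and at 0.355, 0.401 and 0.0286 FPKM in Colo800, a difference of -5.58 (SE 0.176, limma adjusted p = 2.01e-05). TRIM22 was at 11.3, 12.4 and 13.5 FPKM in A375 and at 0.786, 1.26 and 0.800 FPKM in Colo800 (-2.79, SE 0.177, limma adjusted p = 0.000155). For both genes the lines were well apart whatever the hairpin. OAS2, MX1, HERC5 and OASL followed, at -2.79, -2.15, -2.04 and -1.44, with limma adjusted p-values from 0.00145 to 0.0130. Of the genes that rose with ETV1-sh2, 7 were among the 19: UBE2L6, BST2, HERC6, IFITM1, SAMD9L, SAMD9 and IFIT5. In 12 of the 39 genes all 3 Colo800 libraries stood below all 3 A375 libraries, which was not counted over all genes. The count of 19 became 6 without the filter on low values and 10 without A375 ETV1-sh1 or without Colo800 ETV1-sh1.

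Part of the gap between the lines was present with Scrambled and part appeared with the ETV1 hairpins. The median of the 39 single-library differences, Colo800 minus A375, was -0.20 between the Scrambled libraries, -0.62 between those of ETV1-sh1 and -0.95 between those of ETV1-sh2, while the median over all genes stayed between 0.05 and 0.09. The number of genes lower in Colo800 was 21, 30 and 33 of 39 in the same order, and was not counted over all genes. With Scrambled, the largest deficits in Colo800 were those of MX2 (-5.84), TRIM22 (-2.79) and UBE2L6 (-1.60). The largest excesses were those of CMPK2 (1.28), a mitochondrial nucleotide kinase, USP18 (1.16) and IFI6 (0.75). CMPK2 was at 0.854, 3.07 and 5.54 FPKM in A375 and at 3.51, 4.02 and 5.46 FPKM in Colo800, so that the lines met with ETV1-sh2. USP18 was likewise at 1.19 and 3.89 FPKM in the 2 Scrambled libraries and at 6.46 and 6.55 FPKM in the 2 ETV1-sh2 libraries. These single-library values have no replicate check.

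**Figure D4:**
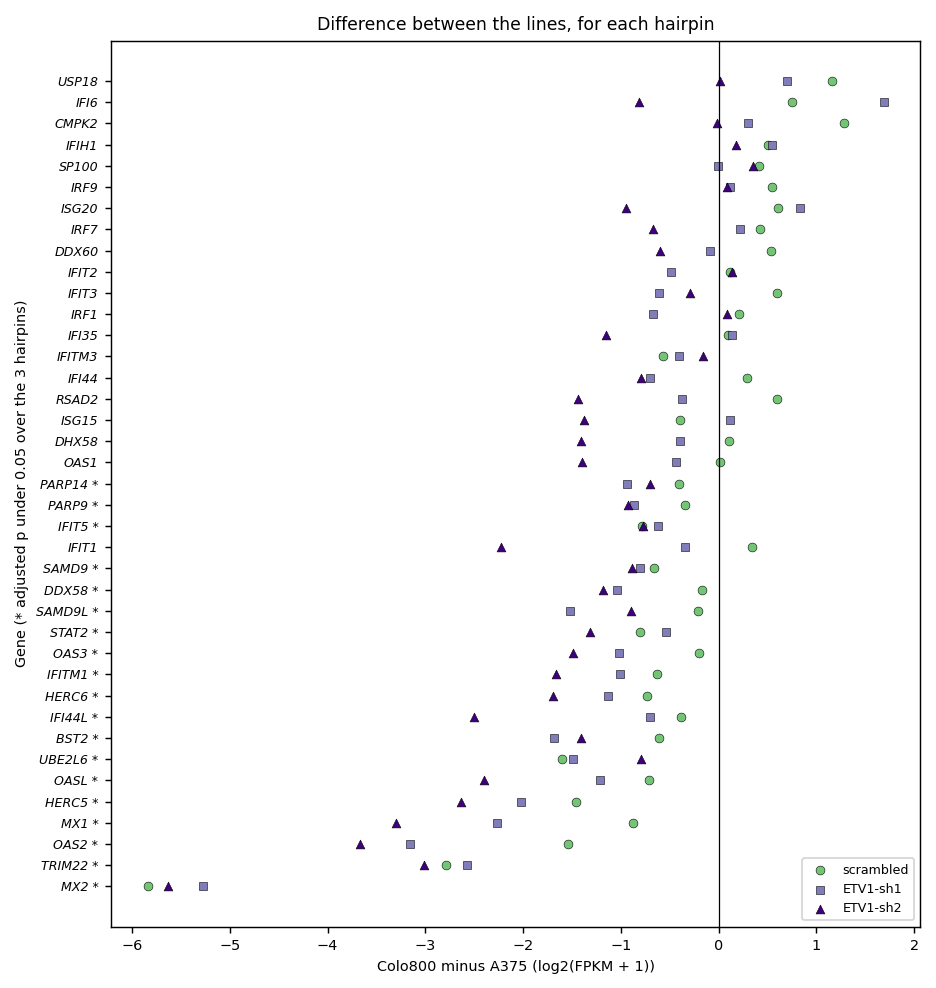
Colo800 minus A375 in log2(FPKM + 1) for each hairpin (green circles Scrambled, lilac squares ETV1-sh1, purple triangles ETV1-sh2), with 1 row per tested gene and an asterisk at the 19 genes with a limma adjusted p under 0.05. MX2 lies beyond -5 with every hairpin, and in rows such as USP18 and CMPK2 the circle lies above 1 and the triangle near 0.

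Many of these genes sit side by side in the genome. In the GENCODE 29 annotation, pairs of neighbours or near neighbours were IFI44L and IFI44, OAS1 and OAS3, OAS3 and OAS2, MX2 and MX1, SAMD9 and SAMD9L, HERC6 and HERC5, IFITM1 and IFITM3, PARP9 and PARP14, CMPK2 and RSAD2, and the run of IFIT2, IFIT3, IFIT1 and IFIT5. Neighbours did not all have the same result. SAMD9 and SAMD9L both rose with ETV1-sh2, as did the 4 IFIT genes, whereas IFI44, HERC6, IFITM1 and OAS1 passed the test and IFI44L, HERC5, IFITM3 and OAS3 did not. That 1 neighbour passed and the other did not is no test of their difference. Overlapping annotation limits some values. IFITM1 overlaps IFITM2 and IRF9 overlaps AL136295.5 on the same strand, so counting by strand would not part their reads. On the other strand, IFIT1, IFIT2 and IFIT3 overlap LIPA, CMPK2 overlaps RSAD2, PARP9 overlaps DTX3L, and TRIM22 overlaps TRIM5. No source used here says whether reads were counted by strand, so reads shared by such pairs could not be told apart. USP18 has a near-identical copy, USP41, and its level is uncertain for that reason.

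Upstream of these genes, the ligands were low. Of 18 interferon ligand genes found, 11 were listed at 0 FPKM in all 6 libraries and 16 were under 0.1 FPKM in all of them. IFNB1, the interferon most cells make first, was listed at 0 in 5 libraries and at 0.0554 FPKM in A375 ETV1-sh1. IFNE, an interferon known from epithelia, was at 0.990, 1.80 and 1.46 FPKM in A375 and at 0, 0 and 0.0515 FPKM in Colo800. IFNA1 reached at most 0.288 FPKM, in A375 ETV1-sh1. None of the ligands reached the mean for testing, and protein was not measured.

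Of 13 tested receptor and signalling genes, 3 rose with ETV1-sh2 and none fell, while 7.73% of all genes were called higher and 9% lower. IRF5, a factor that drives inflammatory cytokine and interferon genes, was at 1.25, 0.871 and 9.51 FPKM in A375 and at 3.38, 2.15 and 14.7 FPKM in Colo800 (2.03, SE 0.217, limma adjusted p = 0.00830). IRF3, the factor that the RNA and DNA sensors activate first, rose by 0.85 (SE 0.190, limma adjusted p = 0.0327), and IL10RB, a chain of the type III interferon receptor, by 0.86 (SE 0.196, limma adjusted p = 0.0348). The chains of the type I receptor did not pass, with IFNAR1 at -0.40 and IFNAR2 at 0.75 (limma adjusted p = 0.163 and 0.0743).

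Among the tested nucleic acid sensors and adaptors, TMEM173 rose with ETV1-sh2 and none fell. TMEM173 encodes STING, the adaptor for cytosolic DNA. It was at 15.4, 21.3 and 77.0 FPKM in A375 and at 21.3, 24.5 and 58.6 FPKM in Colo800 (1.83, SE 0.233, limma adjusted p = 0.0106). MAVS, the adaptor of RIG-I and MDA5, and EIF2AK2, which encodes the double-stranded RNA kinase PKR, did not pass (0.45 and 0.04, limma adjusted p = 0.112 and 0.921). Of 11 tested feedback inhibitors, OTUD5 rose by 0.70 and TNFAIP3, which encodes A20, fell by 1.32 on the log2 scale (limma adjusted p = 0.0309 and 0.0281). That is 1 of 11 in each direction, close to the 7.73% of all genes called higher and the 9% called lower.

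A further list of 51 tested interferon-induced genes outside the 42 held 10 that rose with ETV1-sh2 and none that fell, with a median of 0.45. Over all genes 7.73% were called higher and 9% lower, with a median of 0.05. The 10 genes were APOL6, BATF2, CD274, NMI, PARP10, PSMB9, PSME1, SP110, TAPBP and TRIM21, with fitted differences from 0.60 for PSME1 to 1.44 for APOL6. CD274 encodes the immune checkpoint ligand PD-L1, and PSMB9 and TAPBP act in antigen processing for MHC class I. With ETV1-sh1, PSMB9 rose by 0.95 and TAPBP by 1.41 (limma adjusted p = 0.0455 and 0.0281). PSMB9 was at 12.9, 26.1 and 28.96 FPKM in A375 and at 15.2, 30.1 and 35.1 FPKM in Colo800, with all ETV1 hairpin libraries above both Scrambled ones. In the list of 7 genes that process small RNAs and hairpins, none passed with ETV1-sh2, and the ETV1-sh1 libraries had less TSN, a subunit of the C3PO nuclease, which fell by 1.83 in log2 units (limma adjusted p = 0.0197).

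Markers of other cell types were summed in each library. The 8 leukocyte markers summed to between 77.9 and 326.7 FPKM, most of it from CD68, a lysosomal protein, at 76.6 to 305.6 FPKM with the highest value in A375 ETV1-sh2. CD3E, a T cell receptor chain, was listed at 0 in every library but A375 ETV1-sh2 (0.0367 FPKM). Of the 2 leukocyte markers tested, CD68 and LYZ, none passed with ETV1-sh2. Markers of plasmacytoid dendritic cells, the specialised interferon producers, summed over 4 genes to between 0.0663 and 0.339 FPKM in the 6 libraries. The 6 fibroblast markers summed to 13.4 FPKM in A375 and 11.6 FPKM in Colo800 with Scrambled, to 16.8 and 13.1 with ETV1-sh1 and to 36.0 and 31.7 with ETV1-sh2. Of the 4 tested, COL1A1, PDGFRB and LUM rose with ETV1-sh2, by 1.88, 1.25 and 0.92 (limma adjusted p = 0.00906, 0.0213 and 0.0294), against 7.73% of all genes. PDGFRA did not pass (0.47, limma adjusted p = 0.281). The fibroblast collagen gene COL1A2, not tested, was under 0.1 FPKM in every A375 library. In Colo800 it was at 1.78, 0.178 and 1.32 FPKM, so lower with ETV1-sh2 than with Scrambled. DCN, not tested, was at 0.423, 0.247 and 4.08 FPKM in A375 and at 0.113, 0.119 and 0.441 FPKM in Colo800. The fibroblast sum and many of the interferon-stimulated genes were both higher with ETV1-sh2, and the part of other cells in the result was not tested.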

How the data were processed

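RNA sequencing libraries from 6 infected cell line cultures were analysed, 1 for each line and hairpin. Per the submitters' processing notes, STAR 2.4, Cufflinks 2.2.1, Cuffnorm and the build hg19 were used, and the authors deposited 1 table of FPKM values. Counts were not used here and the exact depth is unknown; relative depth was read from the lowest FPKM values. Levels were set to log2(FPKM + 1) and genes with a mean of at least 1 FPKM were tested with limma 3.58.1 in R 4.3.3 (lmFit, eBayes with a variance trend, Benjamini-Hochberg over all 11129 genes, threshold 0.05). The hairpin fit has 2 residual degrees of freedom. The fit was tested on simulated data. Members, lists and motifs were chosen with earlier results of these data known. Values in every library are given for members past the threshold in a hairpin comparison; others are given by range, count or example, with the 3 largest line differences in each direction with Scrambled. Since no source describes the cultures further, the p-values speak only for the spread among the 6 libraries, which may be technical. Alternatives were the pseudocount, the filter, median centring, no variance trend, no line term and leaving out each library. Promoter sequences are RefSeq's (GRCh38.p14) and neighbours are from GENCODE 29, matched by name or identifier; no coordinate of the hg19 table was converted. Some genes of the lists are not reported here.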

Additional observations from a re-analysis of the deposited data

Results flagged for a closer look

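OAS3 and DDX58 were above Scrambled with both ETV1 hairpins in A375 and at or below it with both in Colo800, and neither passed a hairpin test. Against Scrambled, with ETV1-sh1 and ETV1-sh2 in that order, OAS3 differed by 0.26 and 1.29 in A375 and by -0.55 and -0.0014 in Colo800. DDX58 differed by 0.79 and 0.94 in A375 and by -0.08 and -0.08 in Colo800, so that 3 of these 4 Colo800 values were close to 0. The mean hairpin effect in Colo800 minus that in A375 was -1.05 for OAS3 and -0.94 for DDX58, on the log2(FPKM + 1) scale. A limma interaction test of that difference took ETV1-sh1 and ETV1-sh2 as replicates of the same knockdown state. It gave an unadjusted p of 0.242 for OAS3 and 0.126 for DDX58, and neither passed after Benjamini-Hochberg adjustment.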

How the results depend on the processing

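The count of genes higher with ETV1-sh2 was 18 with a pseudocount of 0.1, 17 after median centring and 16 without the variance trend. It was 0 without the filter on low values, where no gene of the whole table was called. It was also 0 without the line term, where no gene of the whole table was called higher. Leaving out 1 library gave 0 to 26. With ETV1-sh2 against ETV1-sh1, the count was 0 without the filter, 0 without the line term and 0 to 20 without 1 library. With ETV1-sh1, it was 0 to 2 without 1 library. For Colo800 against A375, the count of lower genes was 6 without the filter and 10 to 21 without 1 library, and that of higher genes 1 without the filter and 0 to 4 without 1 library. Fits without 1 library leave 1 residual degree of freedom and assume that a lone library varies like the rest. Calls over all genes changed in those fits as well. The libraries of a line are paired by the line term, and no replicate number pairs them further.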
